A study of Mus musculus with 8 samples.

Results

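The 10 genes described here govern how pyruvate enters mitochondria and is oxidised there: Pdk1, Pdk2, Pdk3, Pdk4, Pdha1, Pdhb, Pdp1, Pdp2, Mpc1 and Mpc2. Each gene was read on all probe sets that the platform annotation names with its symbol and no other. This gave 15 of the 45101 probe sets on the array and 9 of the 18193 genes with a probe set of their own. No probe set was matched to Mpc2, which was not analysed here.

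RNA of whole liver was measured on Affymetrix arrays in 8 mice aged 6 weeks, on a mixed C57Bl/6J, FVB/N and 129 background, with 1 array per mouse. The labels give 3 arrays as controls of WT genotype and 5 as POMCMfn2KO. From this name and the study title it is read here as a knockout of the mitochondrial fusion gene Mfn2 in POMC neurons. The labels do not state the cells. All had free chow and a cycle of 12 h of light and 12 h of dark, and the labels name no fast, sex, hour of collection or Cre driver. By that reading the liver is not the tissue in which the gene was removed, so hepatic Mfn2 does not check the labels. The single comparison, POMCMfn2KO against control liver, belongs to a study whose title concerns a-MSH, hypothalamic endoplasmic reticulum stress and glucose formation in liver. The mice are called below by the replicate numbers of the labels, which describe them as biological replicates.

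Pyruvate crosses the inner mitochondrial membrane through a carrier built from MPC1 and MPC2. In the matrix it is either carboxylated to oxaloacetate, the start of gluconeogenesis, or turned irreversibly into acetyl-CoA by the pyruvate dehydrogenase complex. The pyruvate dehydrogenase kinases phosphorylate the alpha subunit of the complex, encoded by Pdha1, and switch it off; the phosphatases PDP1 and PDP2 switch it on again. PDK2 is the broadly expressed kinase of liver, PDK4 is known to be induced by fasting through PPARa, FOXO1 and glucocorticoids and to be repressed by insulin, and PDK1 is known as a target of the hypoxia factor HIF1. In fed liver the complex passes sugar carbon to fat synthesis, whereas in fasted liver it is held off so that pyruvate can be used for glucose.

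The promoters of the 3 genes that fell, and of Pdk4, the kinase gene with the widest spread, are shown because the results turn on these 4. They run from 250 bases before to 50 bases after the most upstream start in the RefSeq table, build GRCm38.p6, 5′ to 3′, and 9 of the 10 genes had an entry. Capitals mark GCGTG, a HIF core, read on both strands (CACGC on the other).
Pdk1, chr2:71872974-71873273, plus strand: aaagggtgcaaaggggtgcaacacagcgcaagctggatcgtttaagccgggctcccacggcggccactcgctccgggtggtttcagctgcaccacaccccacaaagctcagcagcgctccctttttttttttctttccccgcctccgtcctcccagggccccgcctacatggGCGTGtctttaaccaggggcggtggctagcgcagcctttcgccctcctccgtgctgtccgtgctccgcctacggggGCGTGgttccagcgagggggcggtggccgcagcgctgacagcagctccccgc
Pdha1, chrX:160138381-160138680, minus strand: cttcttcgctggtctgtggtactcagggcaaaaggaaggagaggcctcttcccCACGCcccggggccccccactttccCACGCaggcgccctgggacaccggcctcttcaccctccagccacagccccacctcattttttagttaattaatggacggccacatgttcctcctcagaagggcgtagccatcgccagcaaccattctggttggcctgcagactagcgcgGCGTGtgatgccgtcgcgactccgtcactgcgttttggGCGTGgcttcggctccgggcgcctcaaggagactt
Mpc1, chr17:8283537-8283836, plus strand: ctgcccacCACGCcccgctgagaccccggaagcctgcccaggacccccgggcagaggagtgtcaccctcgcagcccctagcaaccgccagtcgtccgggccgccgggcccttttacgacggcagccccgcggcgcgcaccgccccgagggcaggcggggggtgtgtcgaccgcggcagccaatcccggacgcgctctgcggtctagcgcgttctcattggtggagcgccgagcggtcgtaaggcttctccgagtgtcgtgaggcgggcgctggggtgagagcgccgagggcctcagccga
Pdk4, chr6:5496229-5496528, minus strand: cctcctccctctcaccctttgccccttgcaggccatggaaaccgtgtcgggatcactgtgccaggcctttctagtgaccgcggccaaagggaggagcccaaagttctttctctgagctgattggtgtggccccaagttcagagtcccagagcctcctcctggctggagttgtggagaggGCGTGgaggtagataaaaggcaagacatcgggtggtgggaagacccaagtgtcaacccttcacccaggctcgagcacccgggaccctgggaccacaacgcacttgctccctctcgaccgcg

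The Pdk1 window held 2 matches to GCGTG, the Pdha1 window 4, and the Mpc1 and Pdk4 windows 1 each. GCGTG was present in 32.5% of 27025 promoters of the same length. None of these 4 windows held the other HIF core, ACGTG (in 19.6% of promoters), the E-box CACGTG, which contains ACGTG (7.24%), the estrogen-related receptor site TCAAGGTCA (0.407%), the PPAR site, 2 copies of AGGTCA with any 1 base between them (0.0444%), the FOXO site GTAAACA (3.52%) or the glucocorticoid receptor site, AGAACA and TGTTCT with any 3 bases between them (0.0037%), each searched on both strands. These are matches of letters in a short window and no binding was measured. Among the other windows, those of Pdk3, Pdhb and Mpc2 also held GCGTG, and those of Pdk2 and Pdp2 each held 1 CACGTG. The Pdk3 and Pdhb windows also held 1 ACGTG each.

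Values are log2 levels from the deposited table. Array medians lay between 5.79 and 5.81; precision is set by how many mice were measured. The 7 of 8 hepatocyte markers with a named probe set were all above the filter used here, a mean of 5.80, the median of all non-control probe sets. Sums of markers are the log2 of their summed unlogged levels, in which the brightest marker weighs most. Markers of pancreatic acinar cells, 7 of 10 with a named probe set, summed to 9.93 to 9.99 in controls. They summed to 13.89 and 14.05 in POMCMfn2KO arrays 2 and 3, with the other 3 at 10.77 or less. Skeletal muscle markers, 5 of 5 found, summed to 8.44 to 8.95 in controls and to 8.64, 10.08, 10.19, 9.35 and 9.31 in POMCMfn2KO arrays 1 to 5; 4 of the 5 had a mean above the filter, Myh4 did not, and none of the acinar or muscle markers passed the test between groups. Of 9 leukocyte markers 7 were above the filter, and Cd52 passed (log2 difference -0.60, limma adjusted p = 0.00787). Of 5 endothelial markers 4 were above it, and Stab2 passed (0.55, 0.0107). Cps1 of the hepatocyte markers passed too (0.31, 0.0264). Against these, Clec4f (0.10), Cdh5 (-0.06), and Fgb (-0.19), Ttr (-0.11), Alb (-0.01) and Cyp2e1 (-0.01) went the other way within their lists. The other tested markers of the 3 lists went the same way. None of them passed. The leukocyte marker S100a8, with a mean below the filter, read 6.18 to 6.45 in controls and 4.36 to 5.24 in POMCMfn2KO and was not tested. The 5 stellate cell markers summed to 12.23 to 12.36 in controls and 12.40 to 12.55 in POMCMfn2KO, without overlap, and 0 of them passed. Of 4 erythroid markers, 2 had a named probe set. Alas2 read 10.20 in mouse 4 and 7.78 to 8.12 in the other POMCMfn2KO mice, against 8.15 to 8.20 in controls. Hba-a1, below the filter, went the other way, with 4.38 in mouse 4 and 4.55 to 4.64 in the other POMCMfn2KO mice. Its controls read 4.50 to 4.56. Mouse 4 was nearest to the controls for Pdk1 and Mpc1. The part of these cell types in the results was not tested. In bulk liver, a smaller share of cells of a type and less RNA per cell cannot be told apart.

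In POMCMfn2KO liver, the kinase gene Pdk1, the carrier gene Mpc1 and the alpha subunit gene Pdha1 fell. Pdk1 fell 2.41-fold, Mpc1 1.34-fold and Pdha1 1.25-fold, each lower in 5 of 5 POMCMfn2KO mice than in any control. Pdk4 was above every control in mice 2 to 5 but below every control in mouse 1, and did not pass the test. Of the 8 genes above the filter, 3 fell, 0 rose and 5 did not pass (limma, adjusted p under 0.05 over 11986 genes); at an unadjusted p under 0.05, 2 more, Pdk4 and Pdhb, were higher. Over all genes tested, 10.9% were called lower, 7.02% higher and 18.0% in either direction, against 37.5% of these 8, and nothing particular to the set is read from so few. The groups did not overlap in 3 of the 8, against 28.5% of all genes. Pdp1, among the 8, had a control mean below the filter and reached it only through the POMCMfn2KO arrays.

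**Figure D1:**
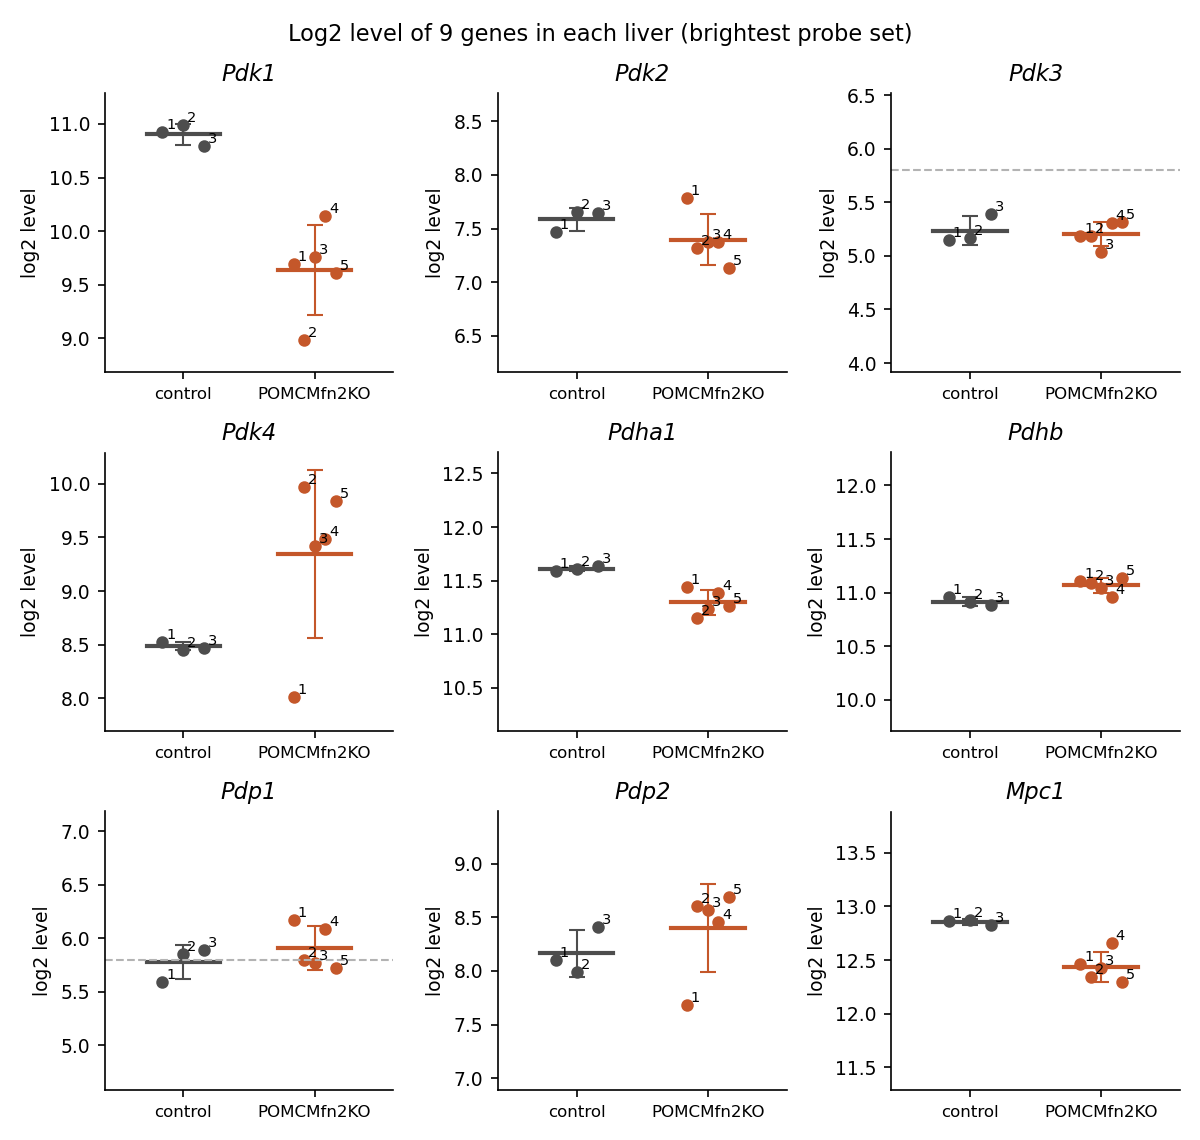
Log2 level of the brightest probe set of 9 genes in each liver, control and POMCMfn2KO, with the replicate number beside each point; the horizontal line is the mean, the bar is ± 1 SD (n = 3 and n = 5), and the dashed line, where in range, is the filter at 5.80. All panels span the same height on the log2 scale, and only Pdk1, Pdha1 and Mpc1 have no overlap between groups; POMCMfn2KO array 1 lies below every control for Pdk4 and Pdp2.

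Pdk1 was read by 4 probe sets. On the brightest, 1423747_a_at, the controls gave 10.93, 10.99 and 10.80, and the POMCMfn2KO mice 9.69, 8.98, 9.76, 10.14 and 9.61. Every POMCMfn2KO mouse lay below every control, with mouse 2 lowest and mouse 4 nearest to the controls. The means were 10.90 ± 0.10 (SD, n = 3) and 9.64 ± 0.42 (n = 5), a log2 difference of -1.27 (SE 0.21, limma adjusted p = 0.00516). In size this ranked 126th of 11986 genes.

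The next brightest Pdk1 probe set, 1423748_at, read 9.51, 9.64 and 9.51 in controls and 8.60, 7.90, 8.80, 9.04 and 8.46 in POMCMfn2KO. The third, 1435836_at, read 9.35, 9.40 and 9.32 in controls and 8.72, 8.25, 8.56, 9.21 and 8.37 in POMCMfn2KO. On both, as on the brightest, mouse 2 was lowest, mouse 4 highest, and the groups did not overlap. Fitted over 22519 probe sets above the filter, of which 15.3% were called (6.86% higher and 8.47% lower) and 26.3% did not overlap between groups, 5 of the 12 member probe sets were called and did not overlap, all lower. The second Pdk1 probe set was 1.997-fold lower (adjusted p = 0.0149), and the log2 difference of the third was -0.73 (adjusted p = 0.0297). These 3 probe sets share the same RNA of the same mice and differ in size of change. The fourth, 1434974_at, lay below the filter at 3.94 ± 0.06 and 3.80 ± 0.07 and was not tested.

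The call of Pdk1 was kept under all 18 alternatives, with adjusted p between 0.000706 and 0.0314. The smallest difference, -0.78, came with the mean of its 4 probe sets, which includes the dim one. Without POMCMfn2KO mice 2 and 3, the arrays high in acinar markers, the difference was -1.09 (limma adjusted p = 0.0116). The dimmer 1435836_at lost its call without those 2 mice (adjusted p = 0.134), and it and 1423748_at lost theirs without any single control (up to 0.106 and 0.0683). The call of 1435836_at was also lost without mouse 2 (adjusted p = 0.0556), mouse 3 (0.0659) or mouse 5 (0.0536).

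Pdk2, the constitutive liver kinase, read 7.46, 7.66 and 7.65 in controls and 7.79, 7.32, 7.37, 7.37 and 7.13 in POMCMfn2KO. Mouse 1 was above every control and the other 4 below every control, so the groups overlapped in both directions. The log2 difference was -0.19 (95% confidence interval -0.49 to 0.10; limma adjusted p = 0.344), and -0.29 without mouse 1, where it passed (adjusted p = 0.0377). Pdk3, a kinase found mainly outside liver, lay below the filter at 5.23 ± 0.14 in controls and 5.20 ± 0.11 in POMCMfn2KO and was not tested.

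Pdk4, the fasting-induced kinase, read 8.52, 8.45 and 8.47 in controls and 8.01, 9.97, 9.42, 9.48 and 9.84 in POMCMfn2KO on its single probe set, 1417273_at. Mice 2 to 5 lay well above the controls, which were nearly equal, and mouse 1 below them. The means were 8.48 ± 0.04 and 9.35 ± 0.78, so the SD in POMCMfn2KO was 20.9 times that in controls. The log2 difference of 0.86 (SE 0.38) had a 95% confidence interval of 0.02 to 1.71 and did not pass over all genes (limma adjusted p = 0.145). It passed when the groups were allowed their own spread (array weights by genotype, adjusted p = 0.0471), but not in the fit over probe sets with the same weights (0.0542). Without mouse 1 it was 1.20 (adjusted p = 0.000957), so 1 animal decided the call. Without mice 2 and 3 it was 0.63 (adjusted p = 0.405). The summed skeletal muscle markers were lower in mouse 1 (8.64) than in mice 2 to 5 (9.31 to 10.19). For these markers mouse 1 lay within the control range of 8.44 to 8.95, whereas its Pdk4 was below every control. Among mice 2 to 5, the muscle sum was highest in mouse 3 and Pdk4 in mouse 2. The part of the muscle markers in the Pdk4 values was not tested.

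Of the subunit genes of the decarboxylase component, Pdha1 fell and Pdhb did not pass. Pdha1, the phosphorylated alpha subunit, read 11.59, 11.61 and 11.64 in controls and 11.44, 11.15, 11.24, 11.39 and 11.26 in POMCMfn2KO on its brighter probe set. All POMCMfn2KO values were below all controls, with mouse 2 again lowest. The means were 11.61 ± 0.02 and 11.30 ± 0.11, a log2 difference of -0.32 (SE 0.08, limma adjusted p = 0.0211). The dimmer probe set, 1449137_at, overlapped between groups (9.01 ± 0.06 and 8.84 ± 0.18) and gave -0.17, with a 95% confidence interval of -0.40 to 0.06 and an adjusted p of 0.294 in the probe set fit. With both averaged, Pdha1 lost its call (adjusted p = 0.0591), as it did without any single control (0.0740 to 0.0837), without mouse 3 (0.0511), and without mice 2 and 3 (0.106).

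Pdhb, the beta subunit, read 10.96, 10.91 and 10.88 in controls and 11.11, 11.09, 11.04, 10.96 and 11.13 in POMCMfn2KO. In 4 of 5 mice it was above every control, and mouse 4 overlapped them. The log2 difference was 0.15 (SE 0.06, limma adjusted p = 0.125), and the dimmer probe set gave 0.20 (95% confidence interval -0.03 to 0.43). Neither passed.

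**Figure D2:**
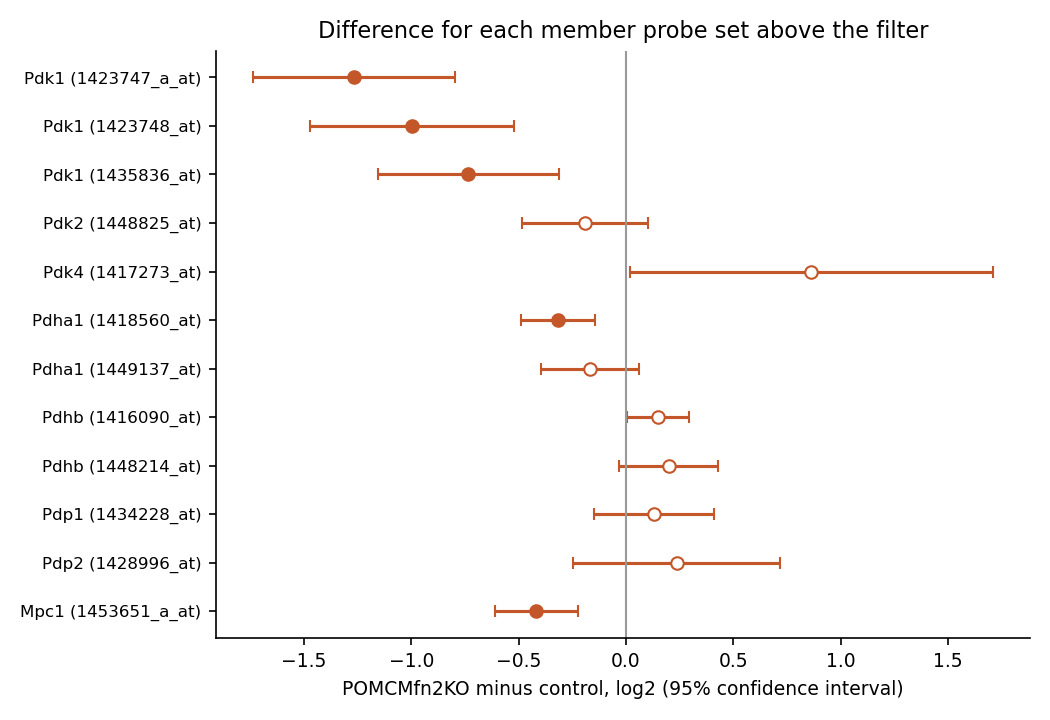
Log2 difference, POMCMfn2KO minus control, with its 95% confidence interval from limma, for the 12 probe sets above the filter; filled points passed an adjusted p of 0.05 in the fit over 22519 probe sets. The 5 filled points are the 3 of Pdk1, the brighter of Pdha1 and that of Mpc1, and all lie left of 0.

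The phosphatase genes did not pass. Pdp2, the phosphatase known to respond to insulin, read 8.10, 7.99 and 8.41 in controls and 7.68, 8.61, 8.56, 8.46 and 8.69 in POMCMfn2KO. As for Pdk4, mouse 1 was below every control and the other 4 above every control. The log2 difference was 0.24 (95% confidence interval -0.25 to 0.72; limma adjusted p = 0.486), and 0.42 without mouse 1 (adjusted p = 0.0245). Pdp1, the calcium-stimulated phosphatase of muscle, was just above the filter by its mean over all 8 arrays, 5.86. Its control mean, 5.78 ± 0.16, lay below 5.80, so it was tested through its POMCMfn2KO mean of 5.91 ± 0.20. The difference was 0.13 (limma adjusted p = 0.503). Background limits what this gene can show. Its other probe set was below the filter (3.93 ± 0.03 and 4.07 ± 0.07).

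Mpc1, the carrier subunit, read 12.86, 12.88 and 12.83 in controls and 12.46, 12.34, 12.43, 12.66 and 12.29 in POMCMfn2KO. The groups did not overlap, and mouse 4 was nearest to the controls, as for Pdk1. The means were 12.86 ± 0.02 and 12.44 ± 0.14, a log2 difference of -0.42 (SE 0.08, limma adjusted p = 0.0111). The call was lost without control 1 (adjusted p = 0.0532) or control 2 (0.0552) and without mice 2 and 3 together (0.0756), where the difference was -0.39.

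**Figure D3:**
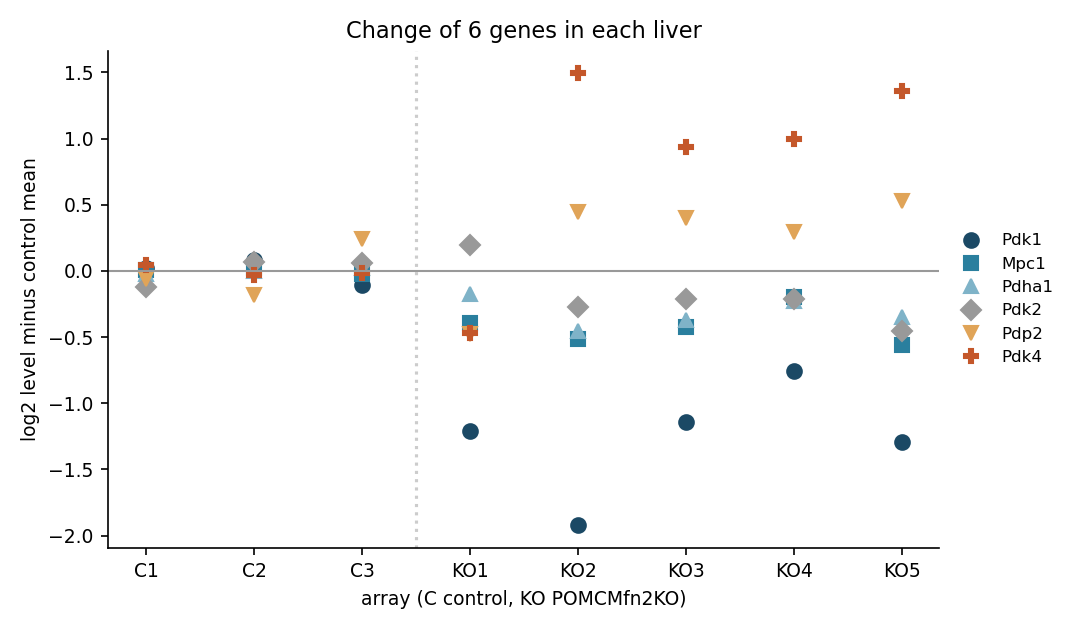
Log2 level minus the control mean for 6 genes on each array (C, control; KO, POMCMfn2KO); each symbol is 1 mouse, and the order of mice carries no meaning. Pdk1 lies lowest in every POMCMfn2KO mouse, whereas Pdk4 and Pdp2 are below 0 in mouse 1 and above 0 in mice 2 to 5.

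Differences between the log2 levels of member genes within each mouse were compared between groups for 3 pairs, 2 of kinase genes and 1 of a phosphatase and a kinase gene, by exact 2-sided permutation over the 56 splits of the arrays (smallest possible p 0.0179). The log2 level of Pdk4 minus that of Pdk1 was -2.42 ± 0.10 in controls and -0.29 ± 1.00 in POMCMfn2KO, a shift of 2.13 (exact permutation p = 0.0357, adjusted over 3 pairs 0.0536). For Pdk2 minus Pdk1 the shift was 1.08 (exact permutation p = 0.0179, adjusted 0.0536), and 0.59 when each gene was averaged over its probe sets (exact permutation p adjusted 0.0804). For Pdp2 minus Pdk2 it was 0.43 (exact permutation p = 0.321, adjusted 0.321). No pair passed after adjustment. Probe sets of different genes differ in brightness, so these values do not show which kinase was more abundant.

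Other genes were taken from 6 lists, 3 of pyruvate and related 2-oxoacid metabolism, 1 of regulators and 2 of targets of PPARa and HIF1, with 75 entries, of which 66 were tested and 16 (24.2%) were called, 10 higher and 6 lower, against 18.0% of all genes. Among partners and cofactors of the complex, 1 of 9 rose and 2 fell (median difference 0.08, against -0.02 over all genes). Lias, which makes the lipoyl group that the complex carries, fell by 0.34 on the log2 scale (limma adjusted p = 0.00952), and Sirt3, a mitochondrial deacetylase, fell by 0.24 (0.0425). The thiamine transporter gene Slc19a2 rose by 0.30 (0.0296). Pdhx, the subunit that anchors the dihydrolipoyl dehydrogenase, differed by 0.26 without passing (0.0604). The calls of Sirt3 and Slc19a2 were lost without any single control (adjusted p up to 0.135 and 0.103); that of Sirt3 was also lost without mouse 2, 3 or 5 (up to 0.0881), and that of Slc19a2 without mouse 3 or 5 (up to 0.0678). Lias lost its call without mice 2 and 3 together (0.0648) and with the mean of its probe sets, where the difference was -0.19 (0.0561). With that mean Slc19a2 also lost its call (0.0695), as Sirt3 did without a filter (0.0525) and after quantile normalization (0.0845). Pdhx passed after quantile normalization (0.0379), with array weights by genotype (0.0224) and without mouse 4 (0.0201). Under other alternatives its limma adjusted p reached 0.183.

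Among genes of pyruvate supply and use, 2 of 16 rose and 3 fell (median -0.12). Slc16a7, a monocarboxylate transporter that carries pyruvate, went from 10.92 ± 0.08 to 10.16 ± 0.10, a log2 difference of -0.75 (limma adjusted p = 0.000587). Pklr, the liver pyruvate kinase that forms pyruvate, went from 8.82 ± 0.09 to 7.99 ± 0.15 (-0.83, 0.000944). Under the 18 alternatives the Pklr difference ranged from -0.90 to -0.56, and its call was kept. Acly, which splits exported citrate to acetyl-CoA, fell by 0.56 on the log2 scale (0.00388), and by 0.28 with the mean of its probe sets (0.0283). Both phosphoenolpyruvate carboxykinase genes, which draw oxaloacetate towards glucose, rose, Pck1 by 0.36 and Pck2 by 0.37. Pcx, the carboxylase that competes with the complex for pyruvate, differed by -0.08 and Ldha, lactate dehydrogenase, by -0.08, and neither passed.

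None of the 8 genes of the related branched-chain and oxoglutarate dehydrogenases passed in limma (median -0.10; 3 had an unadjusted p under 0.05). The lowest p-values were those of Ogdh (0.29, adjusted p = 0.0736), Bckdk, the kinase of the branched-chain complex and a relative of the Pdk genes (-0.22, 0.0742), the phosphatase gene Ppm1k (-0.26, 0.131) and Bckdhb (-0.13, 0.263). Ogdh passed without mouse 4 (0.36, limma adjusted p = 0.00841), with the mean of its probe sets (0.41, 0.0393) and with array weights by genotype (0.0295). Ppm1k passed without mouse 4 (-0.33, 0.0269) and Bckdk with the weights (0.0479). Under other alternatives the limma adjusted p reached 0.234 for Ogdh, 0.292 for Ppm1k and 0.578 for Bckdk. The difference of Bckdk ranged from -0.27 to -0.06 across the alternatives. Among 14 regulators known to act on Pdk transcription, none passed either (median 0.06; 1 had an unadjusted p under 0.05); the lowest p-values were those of Rxra, the partner receptor of PPARa (-0.21, adjusted p = 0.151), Foxo1 (-0.35, 0.209), Hnf4a (0.22, 0.268) and Nr0b2 (0.37, 0.288). Foxo1, the fasting factor that insulin holds back, read 9.58 in mouse 1 and 8.62 to 8.96 in the others, against controls of 9.28 to 9.46. Without mouse 1, which lay above every control, it passed at -0.49 (limma adjusted p = 0.00961). Across the alternatives the difference of Foxo1 ranged from -0.49 to -0.10, with a limma adjusted p of up to 0.575.

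Of 9 tested targets of PPARa, 5 rose and 0 fell (median 0.23), and no further one had an unadjusted p under 0.05. The hormone gene Fgf21 rose by 1.29 on the log2 scale (limma adjusted p = 0.000478) and Ehhadh of peroxisomal fat oxidation by 1.26 (0.000522). Acot1, a thioesterase, rose by 0.79 (0.00269), Angptl4, an inhibitor of lipoprotein lipase, by 0.78 (0.000189) and Creb3l3 by 0.23 (0.0344). Under the 18 alternatives the Angptl4 difference ranged from 0.57 to 0.83, and its call was kept. In each of Fgf21, Ehhadh, Acot1 and Angptl4, all 5 POMCMfn2KO mice were higher than the controls, mouse 1 included. Fgf21 read 8.92 in mouse 1 against a control mean of 7.71, Ehhadh 13.77 against 12.65, Angptl4 11.93 against 11.16 and Acot1 11.55 against 10.95. Pdk4, a target of the same receptor, was 8.01 in that mouse against a control mean of 8.48. Ppara, the gene of the receptor, read 10.75 in mouse 1 and 11.14 to 11.55 in mice 2 to 5, against 10.91 to 10.99 in controls. Its log2 difference of 0.21 did not pass (limma adjusted p = 0.350). The part of PPARa in the Pdk4 values was not tested. Of 10 tested HIF1 targets, 2 rose and 1 fell (median 0.08). P4ha1, a collagen prolyl hydroxylase, rose by 0.83 (limma adjusted p = 0.000598), and by 0.52 with the mean of its probe sets. Vegfa, the vessel growth factor, rose by 0.34 (0.0376), whereas Egln1, the oxygen sensor, fell by 0.29 (0.0384). Adm differed by 0.23 without passing (limma adjusted p = 0.123), though it passed without mouse 4 (0.0255) and with array weights by genotype (0.0497). Under other alternatives its limma adjusted p reached 0.285. The control mean of Adm, 5.76, lay below the filter, and it was tested through its POMCMfn2KO mean of 5.99. Background limits what Adm can show. The calls of Vegfa and Egln1 were lost without any single control (adjusted p up to 0.152 and 0.138) and without mouse 2 or 3 (up to 0.0792 and 0.0848), and that of Egln1 also without mouse 5 (0.0511). These lists were chosen with earlier results of these data known, and their counts are a description.

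**Figure D4:**
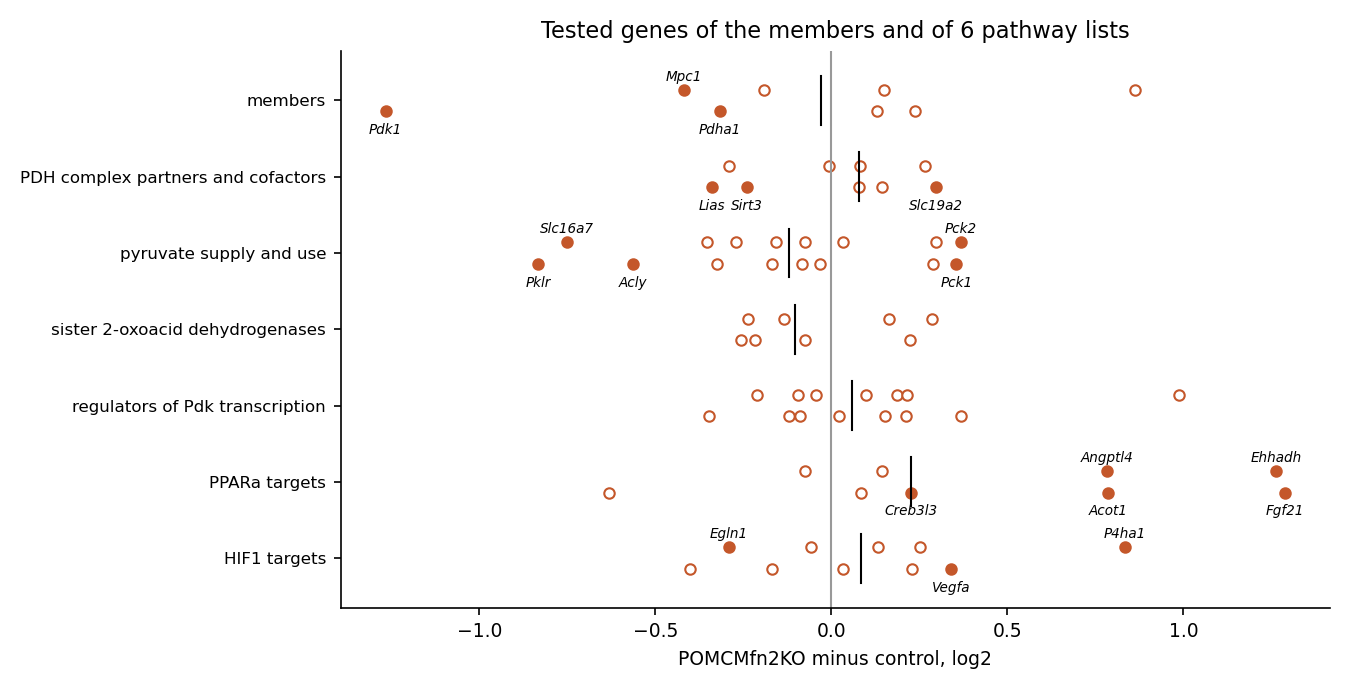
Log2 difference, POMCMfn2KO minus control, of each tested gene in the described set and in 6 pathway lists; filled points passed an adjusted p of 0.05 in limma over 11986 genes and are named, and the vertical bar is the median. Called genes lie on both sides of 0 in 3 lists, all 5 called PPARa targets lie right of 0, and none is called among the related dehydrogenases or the regulators.

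Across the 8 arrays, the genes whose log2 levels, set to the control mean, lay closest to those of Pdk1 were Prxl2b (root mean square difference 0.16), Ntrk2 (0.20) and Serpinb1a (0.21). Those closest to Pdk4 were Rnf24 (0.24), Crem (0.31) and Hsf2 (0.32). Rnf24 read 5.69, 5.72 and 5.88 in controls and 5.67 in POMCMfn2KO mouse 1, close to the filter. Background limits what these low values of Rnf24 can show. Serpinb1a read 6.79, 6.95 and 6.82 in controls and 5.84, 5.29, 5.80, 6.10 and 5.17 in POMCMfn2KO mice 1 to 5. These POMCMfn2KO values lay close to or below the filter, so background also limits what Serpinb1a can show. For Crem, a cAMP-responsive transcription factor gene, mouse 1 read 7.85 and the others 9.06, 8.91, 8.73 and 8.77, against controls of 8.10, 8.06 and 7.91. The measure describes likeness over these arrays, which share the same mice.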

How the data were processed

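Expression had been deposited on the log2 scale for each probe set; RMA and affy are the tools that the submitters' processing notes name, and their versions and parameters are not given in the sources used here. The values were not transformed again. Of 45101 probe sets, 64 were controls, 34945 had 1 gene symbol, 932 had several and 9160 none; symbols were updated by gene ID. Genes were read on the probe set with the highest mean; genes under a mean of 5.80 (the middle value of all non-control probe sets) stayed out. limma 3.58.1 in R 4.3.3 compared the groups in a 2-sided test, and p-values were adjusted by Benjamini and Hochberg's method over 11986 genes, and a second fit covered 22519 probe sets. A value is called at an adjusted p under 0.05. The fit was tested on simulated data.

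Named genes were all members, the 4 genes of each list with the lowest p, and the 3 nearest in pattern to the 2 members with the largest difference; any further gene was picked with its values known. The members and lists were chosen with earlier results of these data known. Alternatives changed the filter, probe set choice, scaling, variance model, threshold and use of replicate numbers, and left out arrays. Promoter sequences are from RefSeq.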

Additional observations from a re-analysis of the deposited data

Results flagged for a closer look

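In POMCMfn2KO mouse 1, Pdk4 read 8.01, far from the next lowest of the group at 9.42 (gap over range 0.719, against a critical value of 0.71 for 5 samples). In the same mouse Pdp2 read 7.68, with the next lowest at 8.46 (gap over range 0.77). Chance alone marks about 1 in 20 groups in this way. Over 11986 genes, 7.36% had a POMCMfn2KO array that stood apart by this measure; it was mouse 1 in 400 genes, mouse 4 and mouse 5 in 180 each, mouse 2 in 67 and mouse 3 in 55.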

How the results depend on the processing

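The members, their probe sets above the filter and the 4 genes of each list with the lowest p changed direction in 0 of 773 values under alternatives, which were not run for other named genes; 682 kept their side of the threshold, 73 lost a call and 18 gained one. With array weights by genotype, 1323 genes were called higher (842 in the original fit) and 1 member, Pdk4, rose. In that setting 26.8% of all genes were called in either direction, against 18%. At an adjusted p of 0.01, 253 genes were higher and 449 lower, with 1 member gene and 1 member probe set lower and 6 pathway genes higher. Without POMCMfn2KO mice 2 and 3, 239 genes were higher and 401 lower, with 1 member gene and 2 member probe sets lower and 6 pathway genes higher. Leaving out single mice, the genes called higher ranged from 286 to 1156 and lower from 496 to 1642; member genes higher from 0 to 2 and lower from 1 to 4; member probe sets higher from 0 to 2 and lower from 1 to 6; and pathway genes higher from 6 to 14 and lower from 4 to 10. The member gene counts were lowest, at 1 lower, without control 1 or 2, and highest without POMCMfn2KO mouse 1 (2 higher, Pdk4 and Pdp2, and 4 lower, Pdk2 with the 3 others). The share of all genes called moved too: 6.85% and 6.84% without control 1 and 2, and 23% without mouse 1, against 18%. Leaving out single mice, the shift of Pdk4 minus Pdk1 ranged from 1.81 to 2.48 and that of Pdp2 minus Pdk2 from 0.29 to 0.71. Without mouse 1 both passed (2.48 and 0.71, exact permutation p adjusted over 3 pairs 0.0429 for each). Before adjustment each exact permutation p was 0.0286, the smallest possible with the 35 splits left. Mouse 1 is the mouse flagged as low for Pdk4 and Pdp2, so these 2 values are a description. The cause of these shifts was not tested. The replicate number as a replicate block gave 2 member genes and 4 member probe sets lower and 1891 genes called, against 2152; Pdha1 (0.0583), Sirt3 (0.0616) and Slc19a2 (0.116) lost their calls. Deviations of same-numbered arrays correlated at 0.043, 0.037 and -0.033 over genes, for numbers 1 to 3. Differently numbered arrays gave -0.08 to 0.054. With 3 controls, these values cannot decide whether the numbers mark mice that belong together. The spread between mice and the small number of controls limit what smaller differences, such as that of Pdhb, can show.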

Other observations

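Some regulators and metabolic genes outside the pyruvate dehydrogenase system also spread widely within the POMCMfn2KO group, and those given here were picked for their values. By the gap measure used for Pdk4, mouse 1 stood apart only for Cs among these 4. Lpin1, a coactivator and phosphatidate phosphatase, read 12.20 in mouse 1, 9.38, 10.30, 7.26 and 9.49 in mice 2 to 5 and 8.71 to 8.80 in controls. Ddit4, an inhibitor of mTORC1 signalling, read 11.41 in mouse 1, 7.87, 7.71, 7.54 and 8.93 in the others and 8.50 to 8.63 in controls. Ppargc1a, a coactivator of mitochondrial genes, read 9.32, 7.95, 8.44, 7.05 and 8.15 in mice 1 to 5, against 8.11 to 8.45 in controls. Cs, citrate synthase, read 10.88 in mouse 1 and 10.10 to 10.28 in the others, with controls at 10.23 to 10.40. The log2 differences between groups of Lpin1 (0.99, limma adjusted p = 0.462), Ddit4 (0.13, 0.930), Ppargc1a (-0.09, 0.909) and Cs (0.03, 0.919) did not pass.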
